A study of Pimephales promelas with 27 samples.

Results

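Pieces of fathead minnow (Pimephales promelas) ovary were compared after 9 h in culture as explants, with or without DHT (dihydrotestosterone, an androgen). The comparison holds the 5 arrays titled DHT9 and the 5 titled CON9, chosen by those titles alone, and these are 10 of the 27 arrays of a series that also sampled explants at 6 and 12 h. The DHT arm is labelled as agent DHT, with an incubation at 1e-06 M, and the other arm as agent control. All tissue was ovary of female fish. The labels state no strain, age or vehicle and do not tie any explant to a fish, so replicates may share an animal and p-values here measure only the spread between these samples. Explants hold oocytes, follicle cells and blood together, so fewer cells of a type and less RNA per cell cannot be told apart.

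DHT binds the androgen receptor, a nuclear receptor that acts as a transcription factor, and unlike testosterone it is not converted to an oestrogen by aromatase. In the fish ovary, theca cells around the follicle make androgens, and the granulosa cells beneath them convert testosterone to estradiol, which drives the liver to make yolk protein. The fathead minnow is a small freshwater fish much used to test chemicals that act like hormones. Which of these genes the probes measured is not known here. Probe names are those of contigs or sequence numbers, and 0 of the 15208 non-control probes matched an entry of the reference gene table. Probes are therefore given by ID, ovary markers were not checked, and no gene role or sequence is given.

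RNA was measured on 1-colour arrays, 1 sample per array. A level is the log2 signal of a probe minus the log2 of its array's 75th percentile, so a difference of 1 is a 2-fold change. That percentile ranged from 2995 to 5709 over the 10 arrays. Each array measured 74.3% to 89.9% of its probes well above background, with 0 non-control probes saturated. Precision is limited by how many arrays there were. The arrays lay on 4 slides, each with both arms. Slide 1 held control replicates 1 and 2 with DHT replicate 1, slide 2 held control replicate 3 with DHT replicate 2, slide 3 held control replicate 4 with DHT replicates 3 and 4, and slide 4 held replicates 5 of both arms.

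Some arrays stood apart in their spike-in controls, spots for foreign transcripts that in this kind of assay are meant to be added to each RNA sample before labelling. Of 10 such transcripts, 6 were well above background on all 27 arrays, and the mean over their spots was taken as the spike-in level of an array. In controls it was 0.13, -1.04, 1.41, -0.49 and 2.05 in replicates 1 to 5, and with DHT it was 2.08, -0.15, 1.98, 2.16 and 2.40. Control replicates 1, 2 and 4 and DHT replicate 2 were low, the other 6 arrays were high, and the arms overlapped. The mean was 0.41 ± 1.29 (SD, n = 5) in controls and 1.69 ± 1.04 (SD, n = 5) with DHT, a difference of 1.28 (two-sided exact permutation p = 0.0952, and 0.278 adjusted over 5 array measures, where the smallest p possible is 0.00794). Before scaling, the log2 spike-in signal ranged from 11.4 to 14.4 over the 10 arrays, and the log2 of the 75th percentile from 11.5 to 12.5. The 75th percentile (p = 0.476), the share of probes well above background (p = 0.889) and the median local background (p = 0.540) had larger exact permutation p-values. Within slides, the spike-in level with DHT minus control was 2.53 on slide 1, -1.55 on slide 2, 2.56 on slide 3 and 0.35 on slide 4. The arm difference in spike-in level was thus turned round on slide 2.

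**Figure D1:**
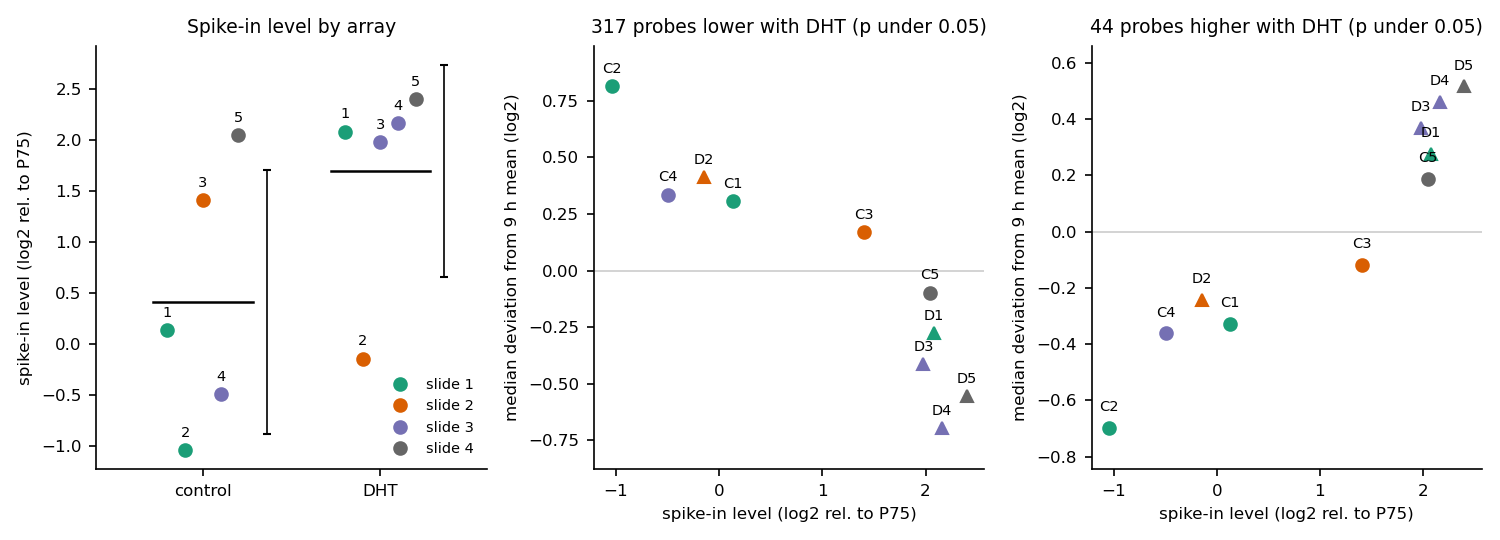
Left, the spike-in level of each array (y axis, log2 relative to the array's 75th percentile, P75) by arm, numbered by replicate and coloured by slide, with the arm mean as a line and the SD as a bar (n = 5). Middle and right, the median deviation from the 9 h mean (y axis, log2) of the probes lower and higher with DHT at an unadjusted p under 0.05, against spike-in level (x axis), with circles for control (C) and triangles for DHT (D). DHT replicate 2 is low in spike-in level and lies with control replicates 1 and 4, and control replicate 5 lies beside the DHT arrays.

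The question was whether DHT changed transcript levels after 9 h. Of 13714 tested probes, limma called 0 (0%) at an adjusted p under 0.05, and the smallest adjusted p was 1.00. At an unadjusted limma p under 0.05 there were 361 probes (2.63%), fewer than the 685.7 that a flat distribution of p would give. Of these, 317 (2.31% of the tested probes) were lower with DHT and 44 (0.321%) were higher, so that 87.8% of them were lower. Over all tested probes the balance was nearly even, with 53.0% lower and a median difference of -0.02. Other scalings gave partly other probes at this p and a less uneven split. There were 204 lower and 68 higher after normexp background correction with quantile normalization (75% lower), 238 and 101 after quantile normalization alone (70.2%), and 276 and 93 in the deposited log2 values (74.8%). Of these 272, 339 and 369 probes, 192, 256 and 274 were among the 361, and under each of the 3 scalings the 317 stayed lower and the 44 higher. The 361 were chosen from the same arrays, so their kept sign is a description. With slide as a fixed block there were 314 lower and 102 higher (75.5%).

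These counts rested on few arrays. Without DHT replicate 2, the DHT array with the low spike-in level, 1475 probes had an unadjusted limma p under 0.05, 1170 lower and 305 higher, and the smallest adjusted p was 0.0538. Without both arrays of slide 2 there were 1391, 1110 of them lower. Leaving out control replicate 5 gave 1007, and leaving out control replicate 2, DHT replicate 4 or DHT replicate 5 gave 115, 123 or 198. Without the 4 arrays of lowest spike-in level there were 508, 379 lower and 129 higher. Only control replicates 3 and 5 and DHT replicates 1, 3, 4 and 5 remained there, fewer than in the fits above. With the spike-in level as a covariate the number was 75, 59 lower and 16 higher, and 30 of the 75 were among the 361. Each of these fits tested 13714 probes, and limma called 0 (0%) of them. The totals without DHT replicate 2, without slide 2 and without control replicate 5 were above the 685.7 that a flat distribution of p would give. The other totals in this paragraph were below it.

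The 317 probes lower with DHT were chosen from this contrast, and their values are a description of it. On slides 1, 3 and 4 their median difference was -0.82, -0.91 and -0.40, and on slide 2 it was 0.25. Of the 317, 99.7% were lower with DHT on slide 1, 98.1% on slide 3 and 96.5% on slide 4, but 19.6% on slide 2. Their median deviation from the 9 h mean was lowest in DHT replicates 4 (-0.70) and 5 (-0.56) and highest in control replicate 2 (0.81), which also had the lowest spike-in level. DHT replicate 2, at 0.41, stood above control replicates 1 (0.31) and 4 (0.33). Control replicate 5, with the highest spike-in level of the controls, was the one control below 0, at -0.10. The 44 probes higher with DHT largely mirrored this order, with medians of 0.96, 0.75 and 0.30 on slides 1, 3 and 4 and 0.04 on slide 2. With the spike-in covariate the median difference of the 317 went from -0.61 to -0.27 and that of the 44 from 0.69 to 0.27, while 313 and 43 of them kept their sign. Of the 317, 214 were well above background on all 10 arrays, and 116 had a mean level below -6. Of the 44, 25 were well above background on all 10 arrays. A fit to only the 10614 such probes gave 245 lower and 31 higher.

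The arrays of 6 and 12 h give the same probes in other samples. They do not enter the 9 h means, but they enter the spread behind the p-values that chose the probes, and with the 9 h arrays alone 152 probes had an unadjusted limma p under 0.05, 96 of them among the 361. The 6 h arrays also lay on slides 1 to 4, but with the arms unevenly spread. At 6 h, DHT replicates 1 to 4 were on slide 2 and replicate 5 on slide 3. Control replicates 1 to 4 were on slides 1, 2, 4 and 4. At 12 h, slide 6 held a control array only. Arm differences at these times, spike-in level included, can thus hold slide differences. The 317 were lower with DHT in 75.7% of cases at 6 h and 74.8% at 12 h. For all tested probes these shares were 53.6% and 52.9%. The median differences of the 317 were -0.14 and -0.17. Of the 44, 29.5% were lower at 6 h and 27.3% at 12 h. The spike-in level also averaged higher with DHT at those times, at 1.63 ± 0.76 (SD, n = 5) against 1.21 ± 0.19 (SD, n = 4) at 6 h and 1.15 ± 0.29 against 0.74 ± 0.39 (SD, n = 4 each) at 12 h. In a fit to those arrays alone, the level of 73.2% of the 317 went down with rising spike-in level within groups, against 45.5% of all tested probes and 22.7% of the 44. Probes are not independent, so these shares are given as a description. The part of the spike-in level in the 9 h differences was not tested. The 9 h arms overlapped in spike-in level but had unequal means, so the covariate fit above cannot fully separate spike-in level from the arm.

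Between slides, the differences of all tested probes did not share a direction. Across probes, r was 0.39 between slides 1 and 3, 0.16 between 1 and 4, and 0.05 between 3 and 4. Slide 2 was at -0.37 against slide 1, -0.42 against slide 3 and -0.04 against slide 4. The slides share no array, but each slide's difference rests on 2 or 3 arrays. Differences past 2-fold were found for 655 lower and 763 higher probes on slide 1, 306 and 264 on slide 2, 1035 and 666 on slide 3, and 425 and 145 on slide 4. The share of all probes that were lower with DHT was 48.3%, 43.0%, 55.1% and 53.7% on slides 1 to 4. The excess of lower probes was thus not common to the slides, and slides 1 and 2 had more higher than lower probes.

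Signal level went with the sign of the difference. For 2788 probes with a mean level below -6, the median difference was -0.18 and 65.7% were lower with DHT. Only 219 of these 2788 were well above background on all 10 arrays, so most of these values lie near background. For 2732 probes from -6 to -4 it was -0.08, and for 2510 from -4 to -2 it was -0.07. Probes from -2 to 0 stood at 0.00, and the 3653 above 0 at 0.04, with 37.7% lower. Slide 2 ran the other way here too, at 0.14 below -6 and -0.01 above 0, while slide 4 was at -0.29 and 0.03. Quantile normalization gives all arrays the same distribution of signal, so it brings such medians near 0 by construction. After it, the medians of the 5 levels lay between -0.03 and 0.01. With the spike-in covariate the medians of the 5 levels, from the dimmest to the brightest, were -0.19, -0.08, -0.03, 0.01 and 0.04.

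**Figure D2:**
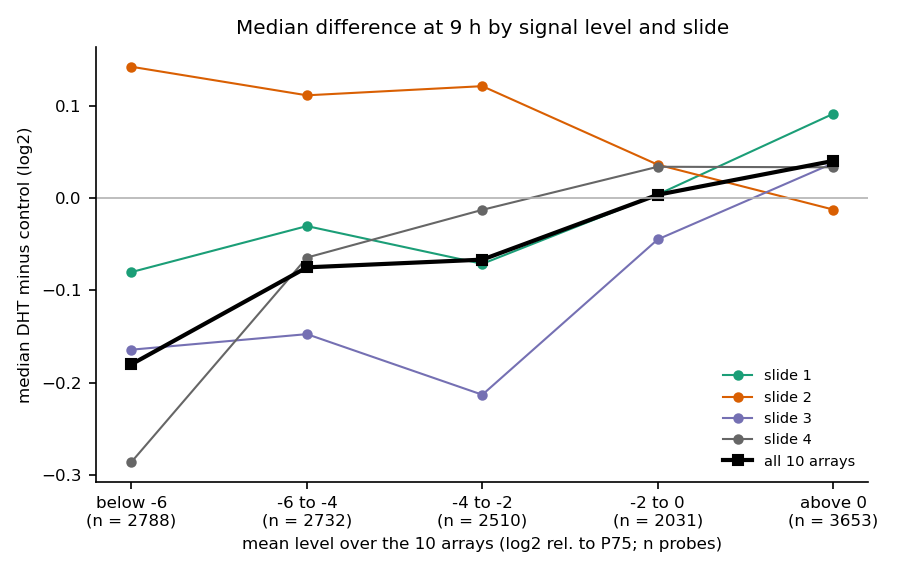
Median DHT minus control difference (y axis, log2) of the tested probes in 5 classes of mean level (x axis, log2 relative to P75, with the number of probes), for all 10 arrays in black and within each slide in colour. The black line goes from -0.18 in the dimmest class to 0.04 in the brightest, and slide 2 goes from 0.14 to -0.01.

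The precision also depended on signal level. Among the probes above 0, 92.6% had a 95% interval that excluded a 2-fold difference in both directions. The share was 70.4% from -2 to 0, 59.1% from -4 to -2, 54.2% from -6 to -4 and 26.1% below -6. The median standard error was 0.18, 0.27, 0.31, 0.33 and 0.45 in these classes. In this fit, a 2-fold difference at 9 h would thus lie outside the interval for most probes above 0. For most probes below -6 it would lie inside. The intervals use a spread shared with the other times, and the fit leaves out slide and the array pairs described below. They are too narrow for a probe whose 9 h arrays vary more than the shared spread. These shares therefore do not show how many probes lacked a 2-fold difference by the spread at 9 h alone. Over the 10614 probes well above background on all 10 arrays, 73.5% had an interval within 2-fold.

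The probes described next are, among those 10614, the 8 lower and the 8 higher ones of smallest p, each with a limma adjusted p of 1.00. The 8 lower with DHT differed by -0.82 to -0.41. All 8 were lower on slides 1, 3 and 4, and 3 of the 8 were lower on slide 2.

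UF_Ppr_AF_112362 had the smallest p. Its level was -5.59, -4.81, -5.60, -5.66 and -5.81 in control replicates 1 to 5 and -6.26, -5.51, -6.60, -6.77 and -6.29 in DHT replicates 1 to 5. Without DHT replicate 2, which lay among the controls, the arms would not overlap. The difference of the means was -0.79 (SE 0.22, 95% interval -1.24 to -0.34), and -0.35 after normexp. Control replicate 2 stood above the other controls.

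UF_Ppr_AF_118576 showed the same array apart. Controls stood at -4.51, -4.49, -4.22, -4.43 and -4.58, a narrow range, and DHT at -5.69, -4.11, -5.22, -5.56 and -5.73. DHT replicate 2 was the highest of all 10 arrays, and the other 4 DHT arrays lay below every control. The difference was -0.82 (SE 0.24, 95% interval -1.31 to -0.32). Without DHT replicate 2 it was -1.10 (limma adjusted p = 0.0538, still above the threshold), and with the spike-in covariate it was -0.53.

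UF_Ppr_AF_107264 had control levels of -4.71, -4.30, -5.01, -5.25 and -4.86 and DHT levels of -5.95, -4.70, -6.0, -5.71 and -5.53. Again the 4 DHT arrays other than replicate 2 lay below all controls. The difference was -0.75 (SE 0.22), with -1.44, 0.32, -0.60 and -0.67 on slides 1 to 4.

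UF_Ppr_AF_103920 was the one of the 8 whose arms did not overlap. Its control levels were -4.35, -4.27, -4.55, -3.85 and -4.25, and its DHT levels were -4.75, -4.68, -4.60, -4.90 and -4.71. All DHT arrays, replicate 2 included, lay below all controls, by a gap of 0.05 at the nearest. The difference was -0.47 (SE 0.14, 95% interval -0.77 to -0.17) and had one sign on the 4 slides (-0.44, -0.12, -0.90 and -0.46). It was -0.38 with the spike-in covariate and -0.25 after normexp. At 6 h this probe differed by 0.08 (SE 0.15) and at 12 h by -0.23 (SE 0.16).

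UF_Ppr_AF_106248 and UF_Ppr_AF_100905 were also lower on all 4 slides, but with overlapping arms. The first differed by -0.68 (SE 0.22), with -0.08 on slide 2, and the second by -0.41 (SE 0.13), with -0.17 there. UF_Ppr_AF_102531 differed by -0.44 (SE 0.13) and UF_Ppr_AF_118823 by -0.65 (SE 0.21), both with a difference above 0 on slide 2 (0.05 and 0.15). Under the spike-in covariate the 8 lay between -0.53 and -0.27, and after normexp between -0.54 and -0.25.

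The 8 probes higher with DHT differed by 0.26 to 0.87. All were higher on slides 1, 3 and 4, and 5 of the 8 were lower on slide 2. UF_Ppr_AF_117655 had control levels of -4.62, -5.20, -4.55, -5.00 and -3.95 and DHT levels of -3.84, -4.51, -3.86, -4.05 and -3.66. Control replicate 5 reached into the DHT range, and DHT replicates 2 and 4 into the control range. The difference was 0.68 (SE 0.25, 95% interval 0.16 to 1.2), and 0.25 with the spike-in covariate.

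UF_Ppr_AF_104599 also had DHT replicate 2 in the control range. Controls were at -2.27, -2.92, -2.41, -2.51 and -1.46 and DHT arrays at -1.27, -2.82, -1.36, -1.19 and -1.21. The 4 DHT arrays other than replicate 2 lay close together and above all controls, control replicate 5 came next, and DHT replicate 2 was lower than all controls but 1. The difference was 0.75 (SE 0.31), and 0.21 with the spike-in covariate.

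UF_Ppr_AF_105930 had the largest difference of the 8, at 0.87 (SE 0.37), but this rested on DHT replicate 5. Its DHT levels were -4.59, -5.83, -4.08, -4.43 and -2.11, against -5.09, -5.28, -5.29, -4.98 and -4.74 in controls. Without DHT replicate 5 the difference was 0.35.

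UF_Ppr_AF_109806 was bright and steady in comparison. It stood at 1.63, 1.49, 1.85, 1.77 and 1.90 in controls and at 1.95, 1.91, 2.05, 2.02 and 2.02 with DHT. The arms did not overlap, by a gap of 0.01, and the SD with DHT was 0.05 against 0.17 in controls. The difference was 0.26 (SE 0.11, 95% interval 0.05 to 0.48), and 0.15 with the spike-in covariate. The other 4 of the 8 were UF_Ppr_AF_104685 (0.36), UF_Ppr_AM_119484 (0.48), UF_Ppr_AF_112454 (0.81) and UF_Ppr_AF_105293 (0.66), each with overlapping arms. With the spike-in covariate the 8 lay between 0.14 and 0.44, and after normexp between 0.20 and 0.70. Without the 4 arrays of lowest spike-in level UF_Ppr_AF_112454 differed by 0.12.

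**Figure D3:**
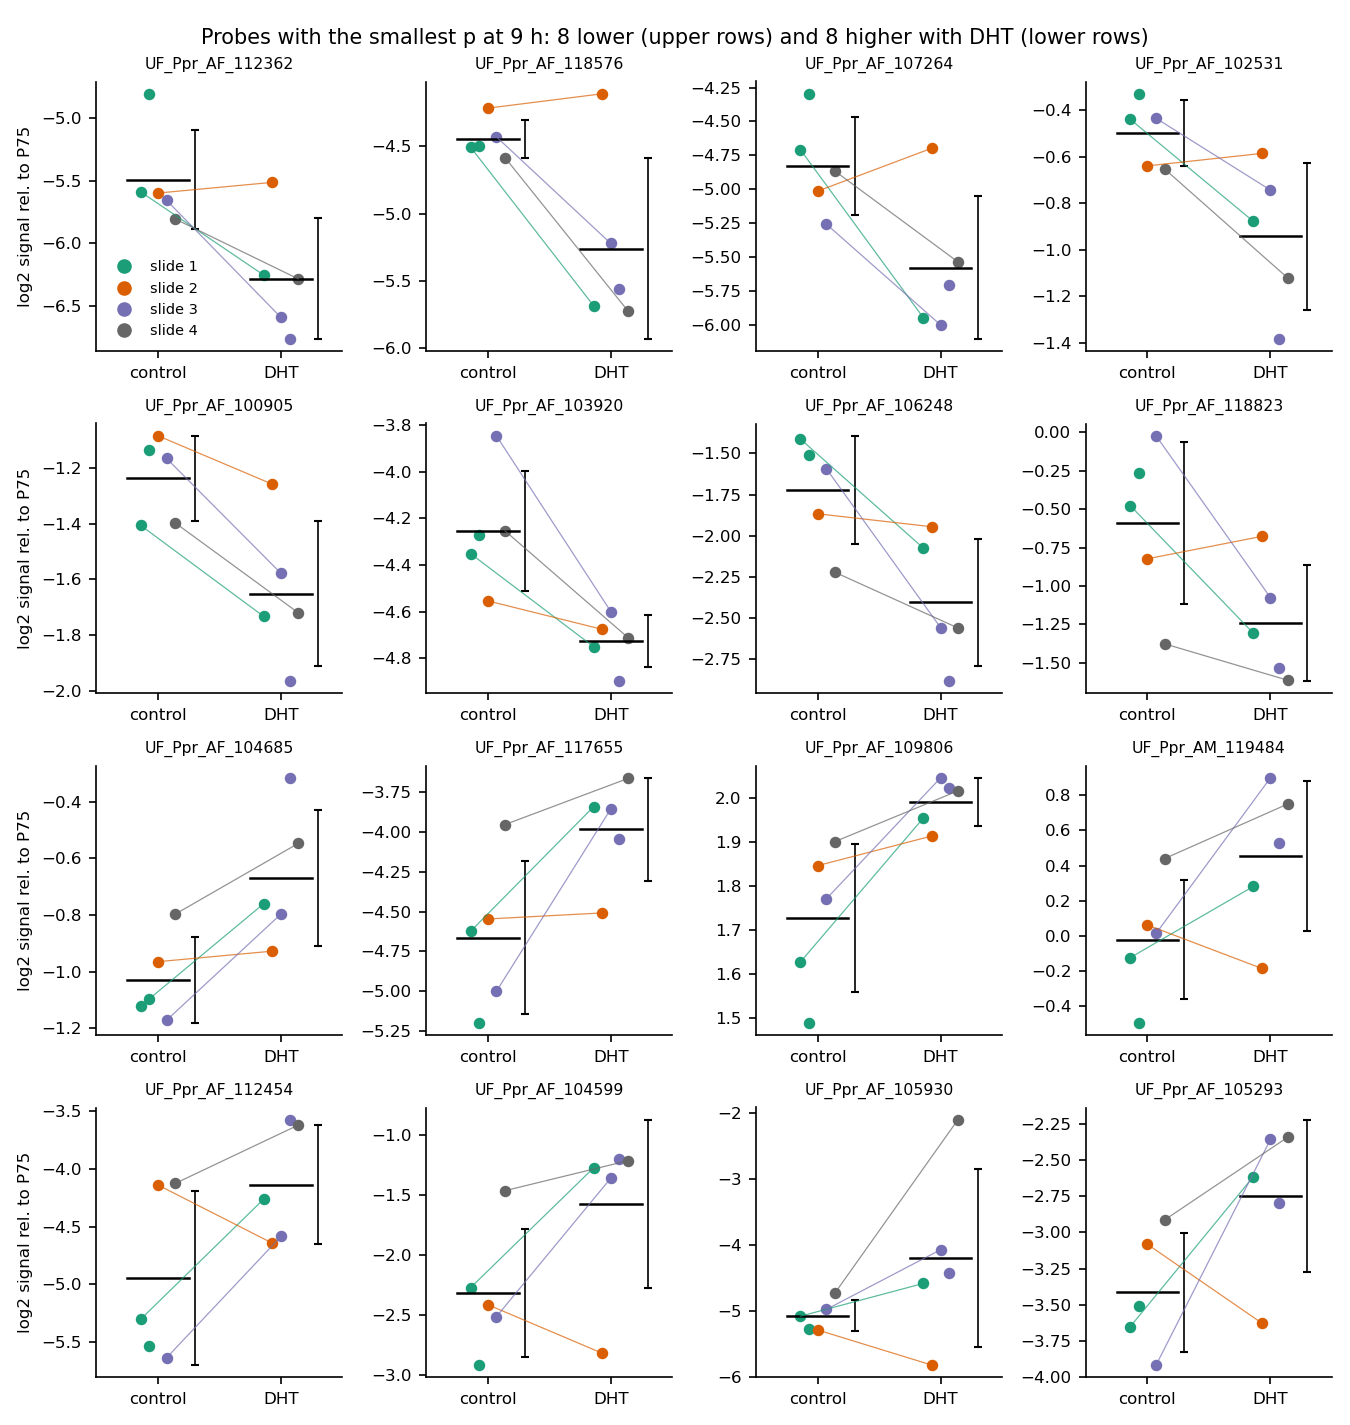
Level (y axis, log2 signal relative to P75) of the 8 probes of smallest p that were lower with DHT (upper rows) and the 8 that were higher (lower rows), by arm, coloured by slide. Black lines are arm means and bars are the SD (n = 5). Thin lines join the control and DHT arrays of a slide that correlated best with each other over the 500 most variable probes. In most panels the slide 2 line is flat or runs against the others.

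A second view of the data asks for full separation of the arms. The 5 DHT values did not overlap the 5 control values for 12 probes higher with DHT (0.0875%) and 3 lower (0.0219%), the opposite balance to the 317 and 44 above. If the 10 arrays were exchangeable, a probe would separate fully, in either direction, with a probability of 0.00794. The 12 and the 3 probes together are a smaller share of the tested probes than that, so they and their balance are given as a description. Full separation means by its construction that the sign was the same on every slide. The median level of the 12 higher probes was 0.66, against -2.98 for all tested probes, and their differences ranged from 0.19 to 0.85 with a median of 0.26. The largest difference belonged to a dim probe, UF_Ppr_AF_113682, with a control median of -7.81 and a DHT median of -7.12, which was well above background on 4 of the 10 arrays. Their median was 0.21 with the spike-in covariate and 0.22 after normexp. At 6 h, 3 of the 12 were lower with DHT, and at 12 h 6 were.

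Among the 11 of them that were well above background on all 10 arrays, 4 are given for the size of their difference. UF_Ppr_AF_110643 had control levels of -3.01, -3.72, -3.56, -3.32 and -3.02 and DHT levels of -2.77, -2.92, -2.85, -1.83 and -2.84. DHT replicate 4 was far above the rest, and the difference was 0.68 (SE 0.39, limma adjusted p = 1.00). UF_Ppr_AF_103436 differed by 0.56 (SE 0.27), UF_Ppr_AF_107399 by 0.36 (SE 0.20) and UF_Ppr_AF_102292 by 0.28 (SE 0.15). The within-slide differences of UF_Ppr_AF_107399 were 0.53, 0.11, 0.41 and 0.33. UF_Ppr_AF_112845 was the tightest of the 12, with controls from 2.64 to 2.77 and DHT from 2.85 to 2.92, and was picked out for this after its values were seen.

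Of the 3 lower probes, UF_Ppr_AF_110736 had control levels of -5.13, -5.11, -5.53, -5.24 and -5.54 and DHT levels of -5.74, -5.71, -5.83, -5.81 and -5.99. The arms were parted by 0.17 at 9 h, yet the standard error was 0.66 for a difference of -0.51, since the spread is shared with the other times. After normexp the difference was -0.18, which was also the median of the 3 lower probes there, against -0.51 as reported. It differed by 0.94 (SE 0.70) at 6 h and by -0.63 (SE 0.73) at 12 h. The third, UF_Ppr_AF_115773, was well above background on 6 of the 10 arrays.

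**Figure D4:**
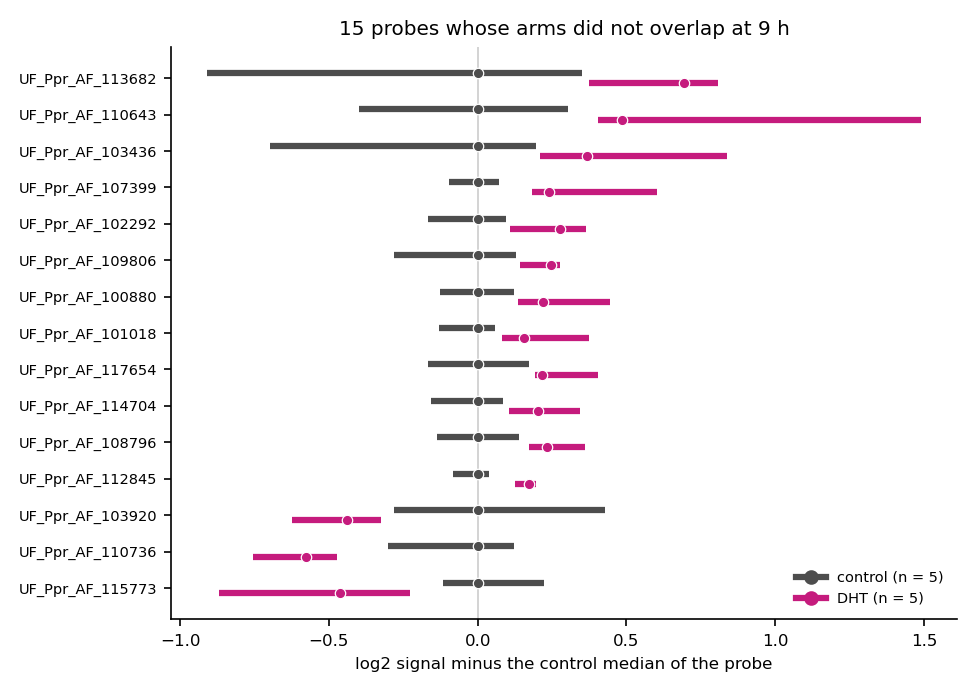
Range (bar) and median (dot) of the 5 control and the 5 DHT arrays for the probes whose arms did not overlap, as log2 signal minus the probe's control median (x axis). The 12 probes higher with DHT stand above and the 3 lower ones below, and most gaps between the bars are narrow.

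A looser measure, the same sign on all 4 slides, was met by 752 probes higher with DHT (5.48%) and 568 lower (4.14%). Both shares are below what 4 independent signs, each as often lower as higher, would give. Of the 752, 46.9% were lower with DHT at 6 h and 48.4% at 12 h, and of the 568, 50.5% and 49.6% were lower, beside 53.6% and 52.9% of all tested probes. These shares were not tested. Their median differences at 6 and 12 h were within 0.01 of 0.

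Whether the effect at 9 h differed from the mean of the effects at 6 and 12 h was tested as a contrast of the same limma fit. By limma it called 0 probes (0%). There were 111 (0.809%) at an unadjusted p under 0.05, of which 88 had the lower difference at 9 h. That number was 403 without DHT replicate 2, 259 without control replicate 4, 181 without control replicate 5 and 71 without control replicate 2. It was 41 over the probes well above background on all 10 arrays of 9 h and 36 over those so on all 27 arrays. With slide as a fixed block, which the fit as reported leaves out, it was 144. The 6 h arms were unevenly spread over the slides, so the contrast can hold slide differences. The 4 with the smallest p were UF_Ppr_AF_104714, UF_Ppr_AF_100905, UF_Ppr_AF_118090 and UF_Ppr_AF_114855, each with a limma adjusted p of 1.00. UF_Ppr_AF_104714 differed by -0.84 (SE 0.29) at 9 h, by 0.44 (SE 0.31) at 6 h and by 0.15 (SE 0.32) at 12 h. After normexp its 9 h difference was -0.23. Its 9 h levels were -6.06, -5.45, -6.64, -6.92 and -5.97 in controls and -7.23, -6.78, -7.22, -7.35 and -6.65 with DHT, which overlap. UF_Ppr_AF_118090 differed by -0.32 (SE 0.16) at 9 h, with -0.27, -0.32, -0.42 and -0.31 on the 4 slides, and by 0.16 (SE 0.17) and 0.33 (SE 0.18) at 6 and 12 h. Slide 2 did not stand apart for this probe. UF_Ppr_AF_114855 differed by -0.45 (SE 0.21), 0.20 (SE 0.22) and 0.40 (SE 0.24) at 9, 6 and 12 h, and by -0.17 at 9 h after normexp. Neither UF_Ppr_AF_104714 nor UF_Ppr_AF_114855 was well above background on all 27 arrays.

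The arms shared structure between single arrays. Over the 500 most variable probes, without use of the agent labels, 4 pairs of arrays were mutual best partners, and each pair held 1 control and 1 DHT array of the same slide. They were replicates 1 of both arms (r = 0.92), control replicate 3 with DHT replicate 2 (0.86), control replicate 4 with DHT replicate 3 (0.88) and replicates 5 of both arms (0.89). These probes were picked for their spread, and over the other 13214 probes r was 0.53, 0.55, 0.45 and 0.73, with the same partners. Control replicate 2 and DHT replicate 4 had no partner.

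Arrays that only shared a slide were less alike than the pairs, which were picked for likeness. Over 10454 probes outside the 500, the median absolute difference between the arrays of a pair was 0.15 to 0.33 (log2), and between the 4 other combinations of arrays on a slide it was 0.35 to 0.47. For control arrays of different slides it was 0.31 to 0.52, and for a control and a DHT array of different slides 0.25 to 0.57. The labels do not say what the paired arrays share. With the pairs as a block, in a fit to the 10 arrays of 9 h, 0 probes were called by limma. An unadjusted p under 0.05 was met by 290, of which 202 were lower, 88 were higher and 63 were among the 361. Control replicate 2 and DHT replicate 4, without a partner, each formed a block of their own and did not enter the difference. These counts thus mix the pairing with the loss of those arrays. Pairs picked for likeness make the spread look smaller, so these p-values may be too small.

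**Figure D5:**
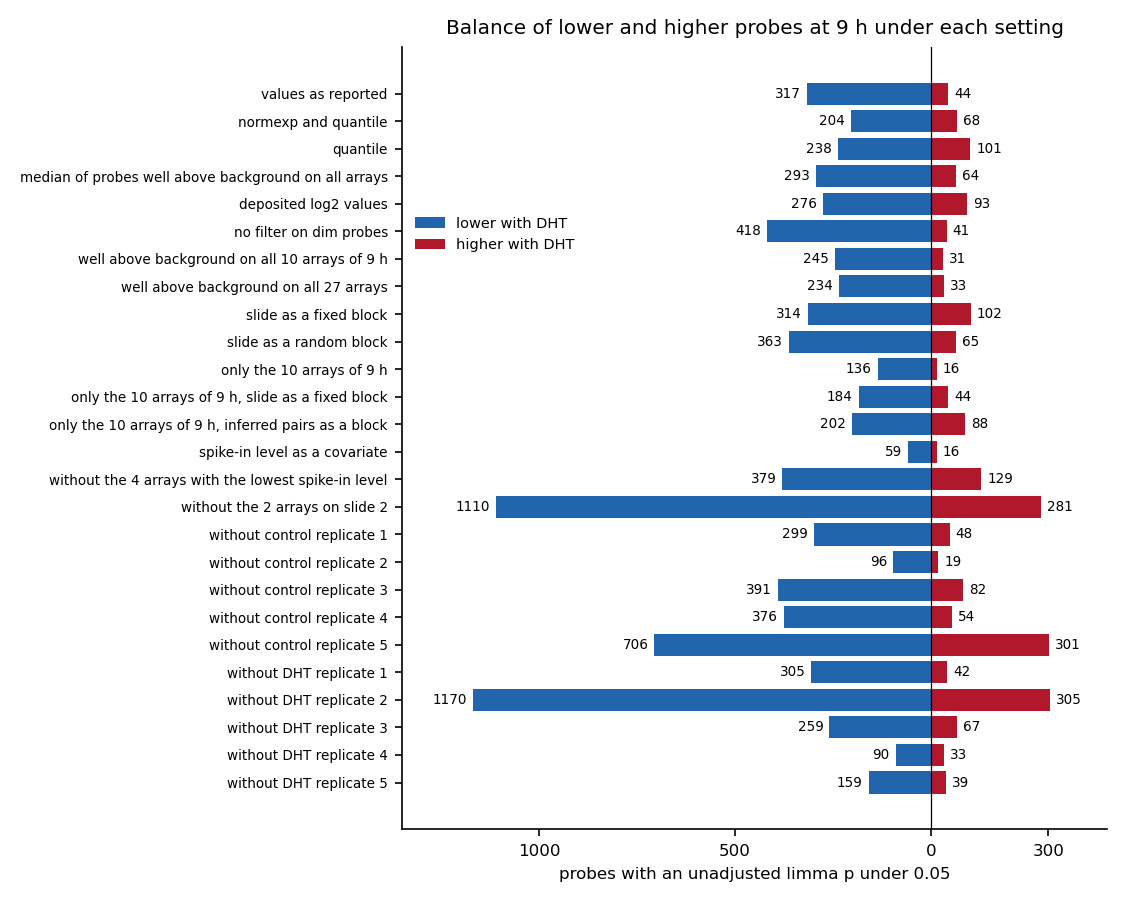
Number of probes with an unadjusted limma p under 0.05 (x axis), lower with DHT to the left and higher to the right, under the values as reported and each alternative (y axis). Lower probes outnumber higher ones under each of them, and the counts run from 75 with the spike-in covariate to 1475 without DHT replicate 2. The alternatives reuse the same arrays, so they are no independent check of this balance.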

How the data were processed

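Per the labels, total RNA was extracted with TRIzol, and the dye was Cy3. The spots were read by the authors with Feature Extraction 10.7.1.1 (Agilent), and the processed signal is a linear intensity, background-subtracted and detrended, per the file headers. A table the authors deposited beside these gives log2 values whose normalization is not stated (over the 9 h arrays, the lowest r with the log2 processed signal of the same array was 0.998, and medians were 8.13 to 8.17).

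The log2 processed signal was set relative to each array's 75th percentile over 15208 non-control probes. Left out were 169 probes with an outlier flag on any array and 1333 that did not reach 4 arrays well above background (some probes met both criteria). Group means of the 6 groups (27 arrays in all) were estimated in limma 3.58.1 (R 4.3.3), with Benjamini-Hochberg adjustment over 13714 probes, threshold 0.05 and 95% intervals. The fit was tested on simulated data with independent noise for each probe and array. Those data held no slide, pair or spike-in structure, so the test does not cover these. Replicates are numbered in accession order. Figures were drawn with matplotlib 3.10.9.

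The probes named are the 8 lower and the 8 higher of smallest p, up to 4 with the largest difference in each direction among those with parted arms and one sign on 4 slides, and the 4 with the smallest p in the contrast with other times, all well above background on the 10 arrays. The comparison and these rules were chosen with earlier results of these data known. Planned gene lists and markers were not run, since probes have no gene names here. Alternatives covered normexp (offset 50, median signal), other scalings, dim-probe filters, slide, inferred pairs (r over 0.5) and leaving out arrays. The spike-in covariate and the fits without low spike-in arrays or slide 2 were chosen after seeing the data. All arrays of 9 h were scanned on the same day.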

Additional observations from a re-analysis of the deposited data

Results flagged for a closer look

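In a group of 5 arrays, 1 array was taken as far from the others when its gap to the nearest exceeded 0.71 of the range, a limit that chance passes in about 5% of groups. Of 56 groups tested, 7 passed. The spike-in level of DHT replicate 2 was -0.15, with the other DHT arrays from 1.98 to 2.40. For UF_Ppr_AF_104599, DHT replicate 2 stood at -2.82 and the others from -1.36 to -1.19. Control replicate 2, the array with the lowest spike-in level, stood at -4.81 for UF_Ppr_AF_112362 (others -5.81 to -5.59) and at -1.92 for UF_Ppr_AF_103436 (others -1.28 to -1.02). DHT replicate 4 stood at -1.83 for UF_Ppr_AF_110643 (others -2.92 to -2.77) and at -6.45 for UF_Ppr_AF_114855 (others -5.89 to -5.72). Control replicate 1 stood at -3.43 for UF_Ppr_AF_118090 (others -3.01 to -2.86).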

How the results depend on the processing

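limma called 0 probes for DHT at 9 h under each of the 25 alternatives, with 75 to 1475 probes at an unadjusted p under 0.05, and 0 for the contrast with the other times in those that could test it. The 24 named probes kept their sign in all 598 values computed, and none passed the threshold (smallest limma adjusted p = 0.0538). They were chosen from the fit as reported, and the alternatives reuse its arrays, so the kept sign is no independent check. The dim-probe filters and the fit to the 10 arrays of 9 h without a block leave a probe's difference unchanged. The number at an unadjusted p under 0.05, 361 as reported, was 152 with only the 10 arrays of 9 h, 228 with slide as a block in those, 75 with the spike-in covariate and 1391 without slide 2. Leaving out 1 array gave 115 to 1475, and a share of lower probes among them of 70.1% to 87.9%. No paired analysis was possible because the labels give no replicate numbers to pair arrays by, other than the fit with pairs inferred from the data as a block, which gave 290 probes. The labels tie no array to a fish, and dim probes near background carry little information.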

Other observations

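The array holds 709 pairs of probes that share a contig or sequence name. Of the named probes, UF_Ppr_AM_119484 differed by 0.48 with DHT while its partner UF_Ppr_AF_101337 differed by -0.71, the latter well above background on 3 of 10 arrays. The partners of UF_Ppr_AF_112454 and UF_Ppr_AF_105930 were well above background on 0 of the 10 arrays.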
